A study of Mus musculus with 4 samples.

Results

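Ccl17, Ccl22 and Ccl1, chemokines that draw CCR4- and CCR8-bearing lymphocytes, and the genes of their receptors, Ccr4 and Ccr8, were followed through single cells of treated mouse tumors. They were chosen by name, and all 5 were found among the 19059 genes of the deposited count tables. CCL17 and CCL22 are ligands of CCR4, and CCL1 is a ligand of CCR8. Dendritic cells, above all mature ones that migrate to lymph nodes, are a known source of CCL17 and CCL22, and activated T cells and mast cells are known sources of CCL1. Both receptors are known from regulatory T cells, the Foxp3-expressing cells that restrain immune responses, and from type 2 helper T cells, and CCR8 is used as a marker of regulatory T cells inside tumors.

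The cells came from MC38 tumors, a mouse colon carcinoma line, which had been grown under the skin of C57BL/6 mice whose CTLA-4 is humanized (B-hCTLA-4). All groups shared this genotype and tumor, treatment began at about 100 mm3, and the tumors of 11 mice per group were pooled into 1 library after 3 treatments, on day 8. The groups were isotype control (human IgG1, 10 mg/kg), ipilimumab (an antibody to human CTLA-4, 10 mg/kg), an antibody to mouse FcgRII, the inhibitory Fc receptor (AT130-2, a mouse IgG1 with N297A, 20 mg/kg), and the combination of these antibodies. For both single antibodies the title and the treatment label name different antibodies, so these are called the library titled anti-human CTLA-4 and the library titled anti-mouse FcgRII, and the labels do not settle which antibody each received. The labels and the article also differ in dose, day, tumor size and number of tumors, and the values above are those of the labels. The labels give no age or sex, and the article states them for its wild-type mice but not for the B-hCTLA-4 mice.

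Live CD45+ cells were sorted after a lymphocyte gradient and counted with 10x Flex probes, each value being a number of unique molecular identifiers (UMIs), that is, of molecules counted once. Of 28290 cells deposited, 26785 were kept, 7741, 6046, 5779 and 7219 in the order isotype control, titled anti-human CTLA-4, titled anti-mouse FcgRII and combination, and this order is used throughout. The median depth of a kept cell was 14267 to 18494 UMIs. Clusters were named from marker genes and were rebuilt here, so that "dendritic cells", "T cells", "NK cells", "ILC1" and "macrophages" stand for cells like these. Every marker of the 8 for T cells, the 5 for dendritic cells, the 7 for NK cells, the 5 for ILC1 and the 8 for macrophages had UMIs in its class in each library. Sums over whole classes would rarely lack such UMIs, so this does not set the classes apart, and T cells also held macrophage markers, as given below. NK cells and ILC1 shared markers, and what set them apart was Itga1 at 234, 278, 264 and 322 UMIs per 1000000 UMIs (CPM) in ILC1 against 78.7, 96.9, 77.01 and 62.9 in NK cells, with Itga2 at 16.98, 19.5, 9.54 and 5.04 against 220.0, 272, 123 and 161. A cluster of 1849 barcodes held T cell and macrophage markers together and is called the mixed droplets. The libraries shared 0 full barcodes, and 712 to 1148 of the 16-base parts in each pair.

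With 1 library per group there is no replicate error and no test between groups was possible. Levels are CPM, the UMIs of a gene per 1000000 UMIs of the class, with exact Poisson 95% intervals, and ratios between libraries have exact conditional binomial 95% intervals; both cover counting error only. Levels are not compared between genes, since each gene has its own number of probes.

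Windows upstream of the ligand genes are shown because the combination exceeded isotype control for all 3 ligands. Another reason is that Ccl22 and Ccl17 lie near each other with Cx3cl1 between them. The window of Ccr8 is shown beside these. On GRCm38, Ccl22 (ENSMUSG00000031779) lies at chr8:94745590-94751699 on the plus strand and Ccl17 (ENSMUSG00000031780) at chr8:94810453-94812036 on the plus strand, with 58754 bases between the end of the first and the start of the second. Ccl1 (ENSMUSG00000020702) lies at chr11:82176657-82305690 on the minus strand, Ccr4 (ENSMUSG00000047898) at chr9:114490316-114504916 on the minus strand and Ccr8 (ENSMUSG00000042262) at chr9:120092114-120094906 on the plus strand. The sequences are from RefSeq on GRCm38.p6, 5′ to 3′ on the strand of the gene, and hold no base of an annotated exon. Those of Ccl17, Ccl22 and Ccr8 end at the start of the annotated gene, while that of Ccl1 ends at the start of its shorter annotated transcripts and lies within an intron of the longest. The capitals mark matches to a motif of NF-kB, GGGA and TTCC with any 2 bases between them, or to a motif of STAT6, TTC and GAA with any 4 bases between them, both searched on both strands in the 250 bases before the start. The window of Ccl17 is chr8:94810203-94810452, that of Ccl22 chr8:94745434-94745589, that of Ccl1 chr11:82179813-82180062 and that of Ccr8 chr9:120091883-120092113.
Ccl17: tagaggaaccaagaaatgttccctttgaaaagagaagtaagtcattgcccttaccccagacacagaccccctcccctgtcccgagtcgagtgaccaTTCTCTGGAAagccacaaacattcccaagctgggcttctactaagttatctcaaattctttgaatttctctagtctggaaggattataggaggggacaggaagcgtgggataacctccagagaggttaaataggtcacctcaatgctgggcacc
Ccl22: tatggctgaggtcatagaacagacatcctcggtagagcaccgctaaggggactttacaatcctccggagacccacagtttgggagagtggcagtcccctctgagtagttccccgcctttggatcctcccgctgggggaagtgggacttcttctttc
Ccl1: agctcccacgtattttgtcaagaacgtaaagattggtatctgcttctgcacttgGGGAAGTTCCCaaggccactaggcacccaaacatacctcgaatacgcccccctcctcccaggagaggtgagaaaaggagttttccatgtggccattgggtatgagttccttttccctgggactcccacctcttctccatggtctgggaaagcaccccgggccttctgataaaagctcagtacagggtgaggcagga
Ccr8: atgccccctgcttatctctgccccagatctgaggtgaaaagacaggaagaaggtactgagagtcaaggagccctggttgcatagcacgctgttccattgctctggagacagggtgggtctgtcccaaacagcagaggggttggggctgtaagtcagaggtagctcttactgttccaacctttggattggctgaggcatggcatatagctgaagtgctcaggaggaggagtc
Ccl17 held 1 match to the STAT6 letters, TTCTCTGGAA at bases -154 to -145 from the start. Ccl1 held overlapping matches to the NF-kB letters, GGGAAGTTCC at -196 to -187 and GGAAGTTCCC at -195 to -186, which are the same site read on either strand. Ccl22, Ccr8 and Ccr4 held 0 matches to either motif, and the window of Ccr4, which overlaps an exon, is not shown. Among 32851 promoter windows, 1.21% held the NF-kB letters and 5.85% the STAT6 letters. The form of the motifs was chosen after the sequences were seen, and a match is a description of letters, not a binding site.

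Over all kept cells the combination exceeded isotype control for the 3 ligands and was below it for Ccr4 and, by less, for Ccr8. Ccl17 was at 13.2, 24.2, 10.5 and 33.3 CPM, with a ratio of combination to isotype control of 2.51 (95% interval 2.39 to 2.64). Ccl22 was at 9.72, 14.5, 8.39 and 24.7 CPM, with a ratio of 2.54 (95% interval 2.39 to 2.70). Ccl1 was at 14.6, 24.6, 8.15 and 46.3 CPM, with a ratio of 3.16 (95% interval 3.02 to 3.31). For each ligand the order of the libraries was the same, from titled anti-mouse FcgRII, the lowest, through isotype control and titled anti-human CTLA-4 to the combination. Ccr4 was at 6.45, 5.84, 2.91 and 3.56 CPM, with a ratio of 0.55 (95% interval 0.50 to 0.61), and Ccr8 was at 13.6, 6.39, 7.78 and 12.005 CPM, with a ratio of 0.88 (95% interval 0.83 to 0.94). Over whole libraries, more cells of a type and more RNA per cell cannot be told apart.

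The ligand UMIs were held by few cells. Of all kept cells, 527 held a Ccl17 UMI, 664 a Ccl22 UMI and 417 a Ccl1 UMI, against 985 with Ccr4 and 1613 with Ccr8. Pooled over the libraries, dendritic cells, 615 of the 26785 cells, held 48.2% of the Ccl17 UMIs and 72.1% of the Ccl22 UMIs. The 2 ligands of CCR4 were split differently within that class. The migratory subcluster, named for Ccr7 and Fscn1, held 54.2% of all Ccl22 UMIs and 15.5% of all Ccl17 UMIs. By library its part of the Ccl22 UMIs was 63.6, 59.6, 74.7 and 43.8%, the least in the combination. The Dcstamp subcluster, named for its leading gene, held 16.7% and 29.8%. Outside the dendritic cells, a cluster called the Ciita cluster, whose first leading genes were Slc4a11, Ccl17, Htr7, Ifitm1 and Ciita, held 21.2% of the Ccl17 UMIs but 3.17% of the Ccl22 UMIs, and macrophages held 7.43% and 10.6%. T cells held 52.7% of the Ccl1 UMIs and the mixed droplets 36.1%. Receptor UMIs were in T cells (40.7% for Ccr4 and 38.6% for Ccr8), in the mixed droplets (41.5% and 47.4%) and in macrophages (13.9% and 8.62%), the last a class of 13582 cells whose levels were low. The 5 genes were left out of the clustering, but Ccl17 was also among the leading genes of the larger cluster of dendritic cells, Ccl22 among those of the smaller one and Ccl1 among those of the CD8-rich T cells, so that where these genes were found is a description.

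**Figure D1:**
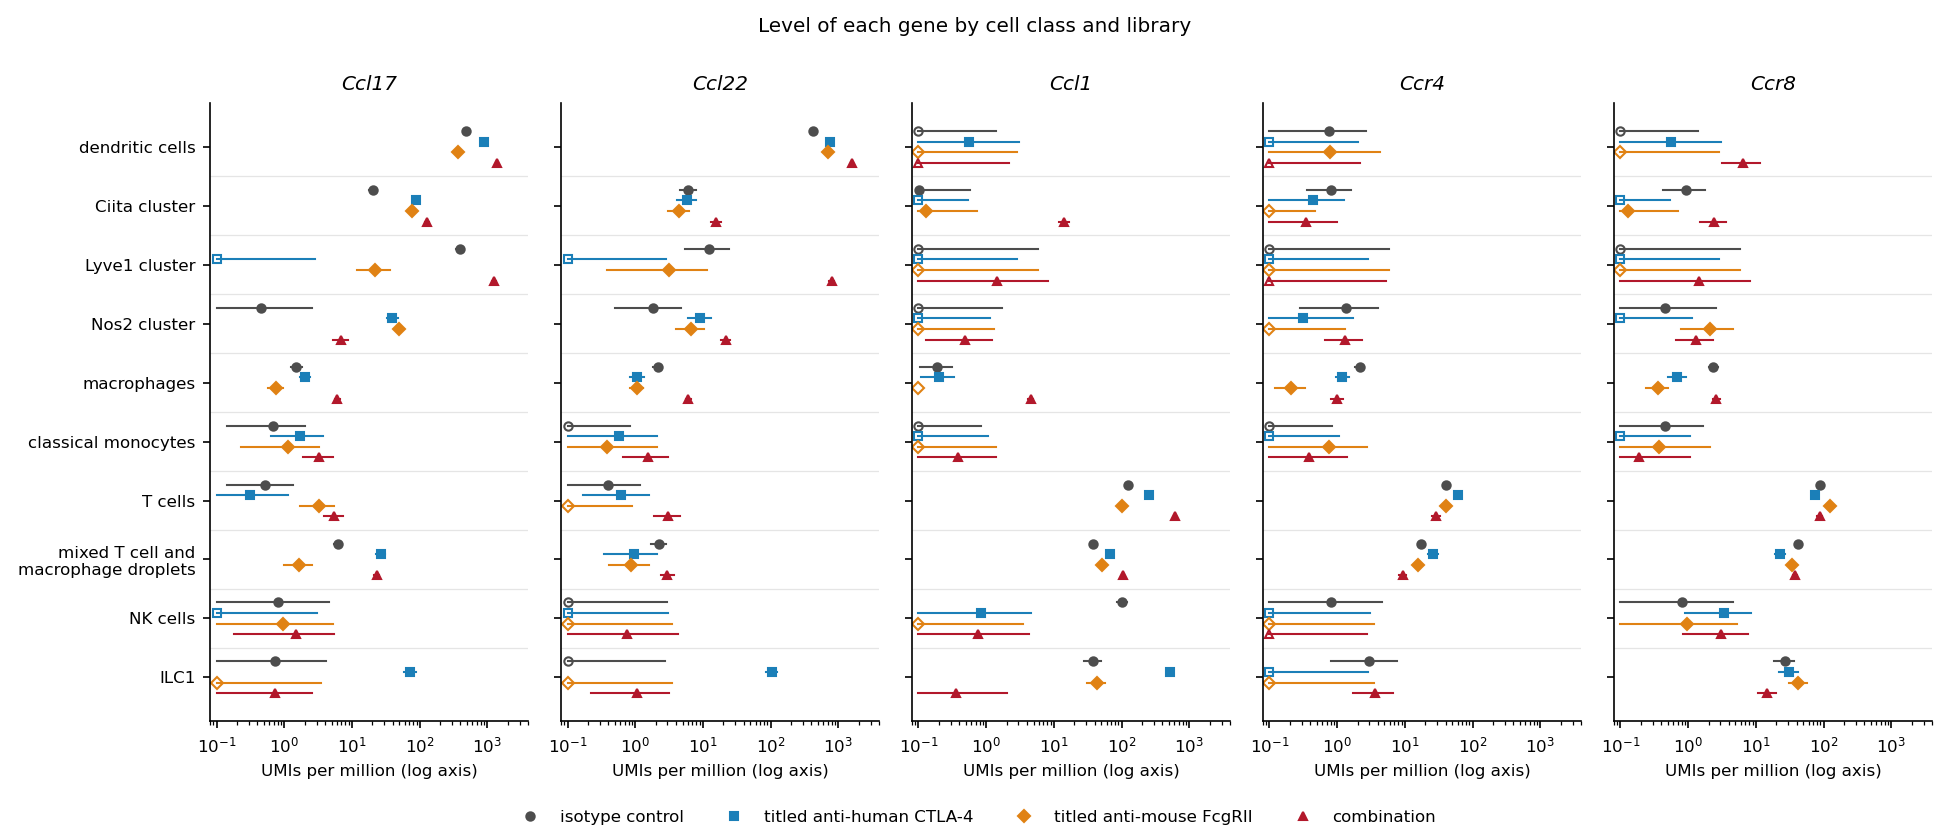
Level of each of the 5 genes (CPM, log axis, with exact Poisson 95% intervals) in 10 classes and clusters, 1 symbol per library, where open symbols and interval ends under 0.1 CPM are drawn at 0.1 CPM. Of those plotted, Ccl17 and Ccl22 stand highest in dendritic cells in each library, at 366 to 1391 and 429.9 to 1574 CPM, and Ccr4 and Ccr8 in T cells, at 28.6 to 61.9 and 75.5 to 123 CPM.

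In dendritic cells Ccl22 was highest in the combination and lowest in isotype control. It was at 429.9 CPM (95% interval 405 to 455) in isotype control, 743 CPM (95% interval 704 to 783) in the library titled anti-human CTLA-4, 711 CPM (95% interval 666 to 759) in the library titled anti-mouse FcgRII and 1574 CPM (95% interval 1515 to 1634) in the combination. The combination stood above each of the others, and the intervals of the 2 single-antibody libraries overlapped each other and lay above that of isotype control. The ratio of combination to isotype control was 3.66 (95% interval 3.42 to 3.93). The cells numbered 241, 150, 97 and 127, of which 73, 50, 27 and 74 held a Ccl22 UMI, and the single cell with the most Ccl22 UMIs held 8.77, 14.8, 28.6 and 8.27% of them. Without the 10 cells with the most UMIs of the gene in both libraries the ratio was 4.22 (95% interval 3.80 to 4.69).

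Ccl17 in dendritic cells was at 477 CPM (95% interval 451 to 504), 879 CPM (95% interval 837 to 923), 366 CPM (95% interval 334 to 401) and 1391 CPM (95% interval 1336 to 1448). The combination was again the highest, the library titled anti-human CTLA-4 second and the library titled anti-mouse FcgRII the lowest, and no intervals overlapped. The ratio of combination to isotype control was 2.92 (95% interval 2.72 to 3.12), and 52, 46, 21 and 51 cells held a UMI. The top cell held 22.5, 18.9, 30.4 and 11.9% of the Ccl17 UMIs, and without the top 10 cells of both libraries the ratio was 3.57 (95% interval 3.15 to 4.04). Both ligands were thus among the genes at least 2-fold higher in the combination, as were 3.05% of the 9722 genes with 20 or more UMIs over both libraries in dendritic cells. Where cells were called dendritic from their own marker UMIs, which gave a broader class of 1192 cells in the combination and 1004 in isotype control, the ratios were 1.76 for Ccl22 and 1.67 for Ccl17.

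A larger share of the dendritic cells of the combination held each ligand, also at equal depth. When each cell was drawn down to 5359 UMIs, the 10th percentile of the class, Ccl22 was found in 25.3%, 28.6%, 20.9% and 50.4% of the cells, and 28, 10, 8 and 16 shallower cells were left out. Without drawing down the shares were 30.3%, 33.3%, 27.8% and 58.3%, at median depths of 8829, 9918, 10391 and 9681 UMIs. For Ccl17 the shares were 18.2%, 27.996%, 17.5% and 38.3% at that depth and 21.6%, 30.7%, 21.6% and 40.2% without drawing down. The combination had the highest share for each ligand, with 50.4% (40.8 to 60.1%) against 25.3% (19.7 to 31.7%) for Ccl22 in isotype control and 38.3% (29.6 to 48.5%) against 18.2% (13.4 to 24.2%) for Ccl17, the brackets giving exact binomial 95% intervals. For Ccl17 the interval of the combination overlapped that of the library titled anti-human CTLA-4. In NK cells, which should lack these genes, the pooled shares at 5359 UMIs were 0.168% and 0.446%, over 208 of 953 cells, the class having a median of 3682 UMIs. The ratio of the shares of combination to isotype control was 1.99 for Ccl22 and 2.10 for Ccl17, less than that of the CPM.

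The share of migratory cells was the highest in the combination, while the order of the other libraries cannot be read from so few cells. This subcluster, whose markers are those of dendritic cells that have matured and left for the lymph node, made up 16.2%, 11.3%, 14.4% and 27.6% of the dendritic cells (39, 17, 14 and 35 cells). The exact binomial 95% intervals were 11.8 to 21.5%, 6.74 to 17.5%, 8.12 to 23.03% and 20.01 to 36.2%. That of the combination overlapped those of isotype control and of the library titled anti-mouse FcgRII. Within the migratory subcluster, Ccl22 was at 2434, 5377, 3631 and 4702 CPM and 37, 17, 13 and 34 cells held a UMI, that is, nearly all of them in each library. The ratio of combination to isotype control was 1.93 (95% interval 1.79 to 2.09), and the highest level was that of the library titled anti-human CTLA-4. Ccl17 was at 659, 2951, 1096 and 2012 CPM in 21, 13, 9 and 20 cells, with a ratio of 3.05 (95% interval 2.65 to 3.53), but 1 cell held 22.1, 56.03, 31.8 and 26.7% of the UMIs. Summed macrophage markers, 8 genes that dendritic cells should hold at low levels, were at 7667, 203, 11006 and 5915 CPM here, and their part in the result was not tested. In the whole class they were at 5099, 4085, 6106 and 4243 CPM, and with the cells over 1% of macrophage markers left out the ratios were 3.66 for Ccl22 and 3.09 for Ccl17.

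In the Dcstamp subcluster (83, 64, 48 and 51 cells), led by Dcstamp, Mmp12 and Mgl2, the ratio for Ccl22 was higher than in the migratory cells and their intervals did not overlap. Ccl22 was at 154, 353, 174 and 879.9 CPM in 29, 31, 14 and 36 cells, a ratio of 5.71 (95% interval 4.84 to 6.75). At 5359 UMIs it was found in 24.9%, 39.6%, 22.1% and 57.8% of these cells. Ccl17 was at 677, 980.4, 322 and 1789 CPM in 27, 28, 11 and 27 cells, a ratio of 2.64 (95% interval 2.42 to 2.88). In isotype control the dendritic cell with the most Ccl17 UMIs lay in this subcluster. Without that cell the Ccl17 UMIs of all dendritic cells of isotype control fell from 1278 to 991, so these levels also rest on few cells. The Dcstamp cells gave 15.6%, 27.2%, 12.8% and 27.7% of the Ccl22 UMIs of dendritic cells and the migratory cells 82.7%, 72.6%, 87.2% and 69.3%. For Ccl17 these shares were 61.8%, 63.9%, 46.2% and 63.8% and 20.2%, 33.7%, 51.1% and 33.5%. Of the leading genes of the Dcstamp subcluster, Dcstamp and Mmp12 also led the Nos2 cluster, and Ifitm1, Mgl2 and Slc4a11 the Ciita cluster. Those clusters, described below, held macrophage markers, and whether all cells of the Dcstamp subcluster are dendritic was not tested.

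The other subclusters held few ligand cells. In the Cd209a subcluster (66, 40, 21 and 28 cells), named for Cd209a, Ccl17 was at 381, 99.4, 0 and 129 CPM but in 3, 3, 0 and 2 cells, and Ccl22 at 3.46, 3.11, 0 and 276 CPM in 2, 1, 0 and 3 cells, with 97.5% of the combination's UMIs in 1 cell. Ifng and Ccl24 were also among its leading genes but rested on few cells. Of all dendritic cells, 5, 2, 0 and 5 held Ifng and 3, 2, 1 and 8 held Ccl24. In the combination 1 cell held 98.3% of the Ifng UMIs of the class and 1 cell 85.5% of those of Ccl24. In the conventional type 1 cells (23, 12, 7 and 5), which present antigen to CD8 T cells, Ccl17 was at 38.4, 62.4, 90.9 and 299.6 CPM in 1, 2, 1 and 2 cells and Ccl22 at 57.6, 8.92, 0 and 11.1 CPM in 4, 1, 0 and 1. In the plasmacytoid cells (30, 17, 7 and 8), the interferon-producing kind, Ccl17 had 0 UMIs in each library, which allows up to 10.6, 18.6, 51.1 and 35.2 CPM at 3 UMIs, and Ccl22 was at 7.07, 0, 0 and 0 CPM. These subclusters are too small for an order of the libraries to be read.

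**Figure D2:**
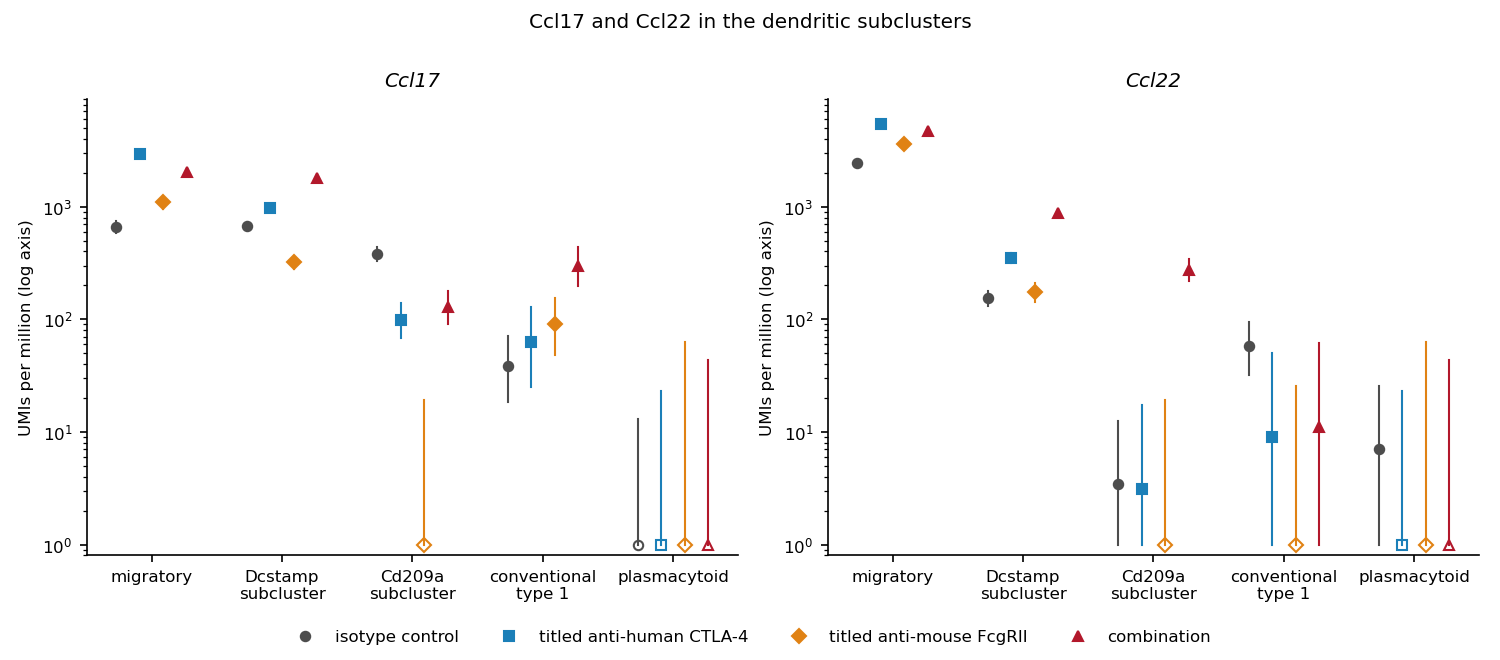
Ccl17 and Ccl22 (CPM, log axis, with exact Poisson 95% intervals) in each of the 5 subclusters of the dendritic cells, 1 symbol per library, where open symbols and interval ends under 1 CPM are drawn at 1 CPM. Ccl22 lies between 2434 and 5377 CPM in migratory cells and between 154 and 879.9 CPM in the Dcstamp subcluster, where the combination is the highest.

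The 2 ligands were found in overlapping cells. Both were held by 36, 35, 14 and 45 dendritic cells, Ccl17 alone by 16, 11, 7 and 6, Ccl22 alone by 37, 15, 13 and 29 and neither by 152, 89, 63 and 47. In the migratory cells none held Ccl17 alone in any library, and both were held by 21, 13, 9 and 20 of 39, 17, 14 and 35 cells. In the Dcstamp subcluster Ccl17 alone was found in 13, 7, 6 and 4 cells and both in 14, 21, 5 and 23. Cells that hold more UMIs have more chance of showing both, which was not taken out of these counts.

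Ccl17 was also found in clusters that held macrophage markers. In the Ciita cluster (621, 413, 485 and 464 cells), whose summed macrophage markers were at 19198, 20359, 21210.2 and 15666 CPM against 34766, 37953, 37741 and 28891 in macrophages, Ccl17 was at 20.6, 86.96, 77.9 and 129 CPM in 20, 23, 9 and 35 cells, with a ratio of combination to isotype control of 6.23 (95% interval 5.36 to 7.27). Up to 64.8% of a library's UMIs in this cluster were in 1 cell. Ccl22 was at 6.03, 5.80, 4.39 and 15.7 CPM there. In the Nos2 cluster (111, 157, 122 and 351 cells, 1.43%, 2.60%, 2.11% and 4.86% of kept cells), named for inducible nitric oxide synthase, Ccl17 was at 0.456, 39.7, 49.02 and 6.82 CPM in 1, 7, 2 and 7 cells and Ccl22 at 1.83, 9.07, 6.70 and 21.7 CPM in 3, 8, 4 and 19. In the Lyve1 cluster (34, 57, 24 and 31 cells) Ccl17 was at 392, 0, 21.9 and 1259.7 CPM, of which 1 cell held 86.1% in the combination, and Ccl22 at 12.5, 0, 3.14 and 804 CPM, of which 1 cell held 92.8%.

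In macrophages, the largest class, both ligands were low and highest in the combination. Ccl22 was at 2.15, 1.07, 1.05 and 6.08 CPM in 41, 31, 27 and 109 of 3716, 2988, 3538 and 3340 cells, with a ratio of 2.83 (95% interval 2.38 to 3.37). Ccl17 was at 1.51, 2.03, 0.755 and 6.04 CPM in 22, 19, 15 and 64 cells, with a ratio of 3.99 (95% interval 3.27 to 4.90). Ccl1 was at 0.188, 0.202, 0.0243 and 4.52 CPM in 6, 6, 2 and 35 cells. At 5359 UMIs Ccl22 was found in 0.392%, 0.315%, 0.341% and 1.27% of macrophages, Ccl17 in 0.29%, 0.212%, 0.143% and 0.706% and Ccl1 in 0.0473%, 0.059%, 0.0161% and 0.434%, the class having median depths of 17799.5, 21073, 21057 and 23800.5 UMIs. The pooled share of Ccl17, 0.337%, was below the 0.446% of NK cells, while that of Ccl22, 0.58%, stood beside 0.168%. In the combination alone the Ccl17 share of macrophages, 0.706%, was above that of NK cells. The NK shares set no firm background, since of 953 NK cells 4 held a Ccl17 UMI and 1 a Ccl22 UMI. The ratio for Ccl22 had an interval that overlapped that of all kept cells, 2.54 (95% interval 2.39 to 2.70). The intervals for Ccl17 and Ccl1 lay above those of all kept cells. For Ccl1 the ratio in macrophages was 24.1 (95% interval 14.5 to 43.5), from 421 against 15 UMIs, and over all kept cells 3.16 (95% interval 3.02 to 3.31). The part of free RNA and of remaining doublets in these levels was not tested. Classical monocytes held Ccl17 in 1, 3, 1 and 8 cells, and neutrophils in 0, 0, 0 and 3.

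Ccl1, the ligand of CCR8, was held mostly by T cells and by the mixed droplets, and its T cell level was highest in the combination. In T cells it was at 124 CPM (95% interval 116 to 132), 257 CPM (95% interval 245 to 269.8), 101.3 CPM (95% interval 91.7 to 112) and 612 CPM (95% interval 594 to 631). The libraries stood in the order they had over all cells, their intervals did not overlap, and the ratio of combination to isotype control was 4.93 (95% interval 4.59 to 5.30). Ccl1 was among the genes at least 2-fold higher in T cells, as were 2.28% of 10956 genes. The UMIs were in 37, 54, 21 and 60 of 493, 692, 270 and 491 cells, and the top 10 of these held 77.6, 79.3, 94.1 and 73.5% of them. Without the top 10 cells of both libraries the ratio was 5.81 (95% interval 5.01 to 6.75). At 2358 UMIs per cell, the 10th percentile of T cells, Ccl1 was found in 5.62%, 5.83%, 4.64% and 9.63% of the cells (7.51%, 7.80%, 7.78% and 12.2% without drawing down), a ratio of 1.71. In the same way it was found in a pooled 0.0863% of macrophages. With the mixed droplets counted among the T cells the ratio was 3.65.

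Most T cells with Ccl1 also held a CD8 gene. A Cd8a or Cd8b1 UMI was in 97.3%, 94.4%, 80.95% and 86.7% of the T cells with a Ccl1 UMI, against 32.02%, 49.4%, 40.6% and 56.8% of those without. The T cells formed a CD4-rich and a CD8-rich cluster, and the CD8-rich one (135, 232, 74 and 150 cells) held Ccl1 at 151, 362, 155 and 837 CPM against 57.9, 87.6, 25.7 and 243 CPM in the CD4-rich one. Median depths were 29486, 11200.5, 25064 and 12845.5 UMIs in the CD8-rich cluster and 3890.5, 4270, 4490 and 4950 in the CD4-rich one. Those of the mixed droplets were 28824.5, 26280, 32034.5 and 34591.5 UMIs. The part of depth and of remaining doublets in the Ccl1 levels of these clusters was not tested. In CD8 T cells without a Foxp3 UMI (129, 341, 103 and 252 cells), whose summed macrophage markers were at 14300.1, 7980.2, 15401 and 10875 CPM, Ccl1 was at 325, 332, 151 and 939.7 CPM in 29, 49, 14 and 46 cells, with a ratio of 2.89 (95% interval 2.66 to 3.16). The share of this gate with a Ccl1 UMI was not higher in the combination, with 46 of 252 cells against 29 of 129 in isotype control. The median depths of these cells were 7736 and 6605 UMIs. Ifng, the interferon of effector T cells, was in 86.5%, 87.04%, 85.7% and 75.00% of the cells with Ccl1, against 32.02%, 45.3%, 38.2% and 48.03% of those without. Ccr8 itself was in 70.3%, 53.7%, 76.2% and 76.7% of the cells with Ccl1 and in 30.7%, 21.2%, 26.9% and 28.3% of those without. The cells with Ccl1 were deeper, at medians of 12890, 10104, 16148 and 13129 UMIs against 4519, 5055, 5159 and 5816, and the part of depth in these shares was not tested.

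In CD4 T cells without a Foxp3 UMI Ccl1 was at 20.9, 234, 384 and 742 CPM, but in 1, 3, 3 and 8 cells. In ILC1, tissue-resident innate lymphocytes, it was at 37.7, 528, 42.9 and 0.36 CPM in 4, 2, 2 and 1 of 100, 115, 81 and 195 cells, and 99.9% of the UMIs of the library titled anti-human CTLA-4 were in 1 cell. In NK cells it was at 102.3, 0.835, 0 and 0.758 CPM in 3, 1, 0 and 1 of 249, 307, 153 and 244 cells, and 80.2% of the isotype control UMIs were in 1 cell. In mast cells and basophils it was found in 3, 5, 0 and 2 cells. In Foxp3-positive T cells it was at 75.9, 0, 13.001 and 23.99 CPM in 5, 0, 3 and 1 cells, where 0 UMIs allow up to 5.06 CPM at 3 UMIs. There the combination was below isotype control, with a ratio of 0.32 (95% interval 0.19 to 0.50), and 1 cell held 52.6% of the isotype control UMIs. No order of the libraries can be read from so few cells.

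Ccr4, the receptor of CCL17 and CCL22, was lower in the T cells of the combination. It was at 40.9 CPM (95% interval 36.5 to 45.8), 61.9 CPM (95% interval 55.9 to 68.3), 40.5 CPM (95% interval 34.6 to 47.2) and 28.6 CPM (95% interval 24.8 to 32.8). The library titled anti-human CTLA-4 was the highest, isotype control and the library titled anti-mouse FcgRII did not differ beyond their intervals, and the ratio of combination to isotype control was 0.70 (95% interval 0.58 to 0.84). This is within 2-fold, the limit that 2.46% of genes in T cells passed downward. In each of the gates described below the interval of the ratio included 1. It was 0.87 (95% interval 0.60 to 1.24) in Foxp3-positive cells and 1.26 (95% interval 0.93 to 1.70) in CD4 cells without Foxp3. In CD8 cells without Foxp3 it was 0.54 (95% interval 0.13 to 2.36), and in the rest 0.97 (95% interval 0.61 to 1.59). At 2358 UMIs Ccr4 was found in 13.1%, 12.7%, 9.85% and 7.01% of T cells (26.8%, 18.5%, 17.8% and 13.8% without drawing down), against a pooled 0.0184% of NK cells and 0.164% of macrophages.

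Ccr8, the receptor of CCL1, differed between the T cells of isotype control and of the combination by less than the counting error in the classes used here, but not under every other processing. It was at 87.4 CPM (95% interval 80.9 to 94.4), 75.5 CPM (95% interval 68.9 to 82.5), 123 CPM (95% interval 113 to 135) and 87.3 CPM (95% interval 80.6 to 94.3), the library titled anti-mouse FcgRII being the highest, and the ratio of combination to isotype control was 1.00 (95% interval 0.89 to 1.11). At 2358 UMIs it was found in 18.02%, 13.3%, 16.5% and 17.5% of T cells (33.7%, 23.7%, 30.7% and 34.2% without drawing down), against a pooled 0.369% of NK cells and 0.191% of macrophages. The median depth was 4699, 5258, 5816 and 6279 UMIs in T cells and 3682 UMIs in NK cells. Summed macrophage markers of the T cells were at 18114, 7904, 17414 and 13297 CPM, and their part in the receptor levels was not tested. The interval of the ratio lay below 1 under 5 alternatives. It was 0.78 (95% interval 0.70 to 0.88) without integration, 0.85 (95% interval 0.76 to 0.95) with no doublets left out, 0.87 (95% interval 0.81 to 0.93) with classes from marker UMIs and 0.80 (95% interval 0.69 to 0.93) with the T cells over 1% of macrophage markers left out. With the mixed droplets counted among the T cells it was 0.93 (95% interval 0.872 to 0.996).

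The cells that held Ccr8 differed between the libraries. T cells were split by their UMIs into Foxp3-positive cells, CD4 cells without Foxp3 and CD8 cells without Foxp3, the rest being cells without Foxp3 that held UMIs of both CD4 and CD8 genes or of neither. The Foxp3-positive cells made up 31.03%, 9.10%, 25.9% and 3.05% of the T cells, the CD4 cells without Foxp3 25.2%, 27.7%, 16.7% and 21.4% and the CD8 cells without Foxp3 26.2%, 49.3%, 38.1% and 51.3%. At 2358 UMIs Foxp3 was found in 24.6%, 8.47%, 20.01% and 2.03% of the T cells, so that the libraries kept their order at equal depth. A cell with no Foxp3 UMI may still be a regulatory T cell, since the gates depend on depth.

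Foxp3-positive cells gave 61.6%, 9.73%, 69.1% and 2.05% of the Ccr8 UMIs of T cells. CD4 cells without Foxp3 gave 10.4%, 30.2%, 7.41% and 33.9% of them. CD8 cells without Foxp3 gave 18.6%, 49.9%, 16.03% and 39.2%. In isotype control and in the library titled anti-mouse FcgRII most Ccr8 UMIs thus came from Foxp3-positive cells, and in the other libraries most came from cells without Foxp3. For Ccr4, Foxp3-positive cells gave 64.2%, 38.6%, 69.5% and 18.3% of the UMIs and CD4 cells without Foxp3 24.8%, 54.04%, 22.6% and 54.3%. The CD8 cells without Foxp3 gave 1.61%, 2.27%, 0.61% and 2.40% of the Ccr4 UMIs, few in any library.

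The mixed droplets (682, 217, 322 and 628) held much of the receptor RNA and are given beside the T cells, since their T cell and macrophage parts cannot be told apart. Ccr8 was at 41.3, 22.97, 34.6 and 37.8 CPM in them, with a ratio of combination to isotype control of 0.91 (95% interval 0.84 to 0.99). Ccr4 was at 17.2, 26.1, 15.9 and 9.27 CPM, with a ratio of 0.54 (95% interval 0.46 to 0.63), and Ccl1 at 37.8, 67.6, 50.5 and 104 CPM, with a ratio of 2.75 (95% interval 2.56 to 2.95). Over all mixed droplets the directions for Ccr4 and Ccl1 were those in T cells, but not in each gate. In CD8 droplets without Foxp3, which held most of their Ccl1 when pooled over the libraries, it was at 146, 32.9, 82.7 and 152 CPM in 20, 19, 11 and 44 droplets, and the ratio of combination to isotype control was 1.04 (95% interval 0.96 to 1.13), an interval that includes 1 and lies below the 2.89 (95% interval 2.66 to 3.16) of the T cell gate. In Foxp3-positive droplets Ccr4 had a ratio of 1.60 (95% interval 1.23 to 2.06), above 1, against 0.87 (95% interval 0.60 to 1.24) in Foxp3-positive T cells. Ccr8 had ratios of 0.52 (95% interval 0.39 to 0.68) in Foxp3-positive droplets, 3.77 (95% interval 2.94 to 4.90) in CD4 droplets without Foxp3 and 0.82 (95% interval 0.68 to 0.99) in CD8 droplets without Foxp3. Foxp3-positive droplets gave 73.00%, 17.2%, 56.5% and 5.00% of their Ccr8 UMIs, again the most in isotype control and the library titled anti-mouse FcgRII and the least in the combination.

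**Figure D3:**
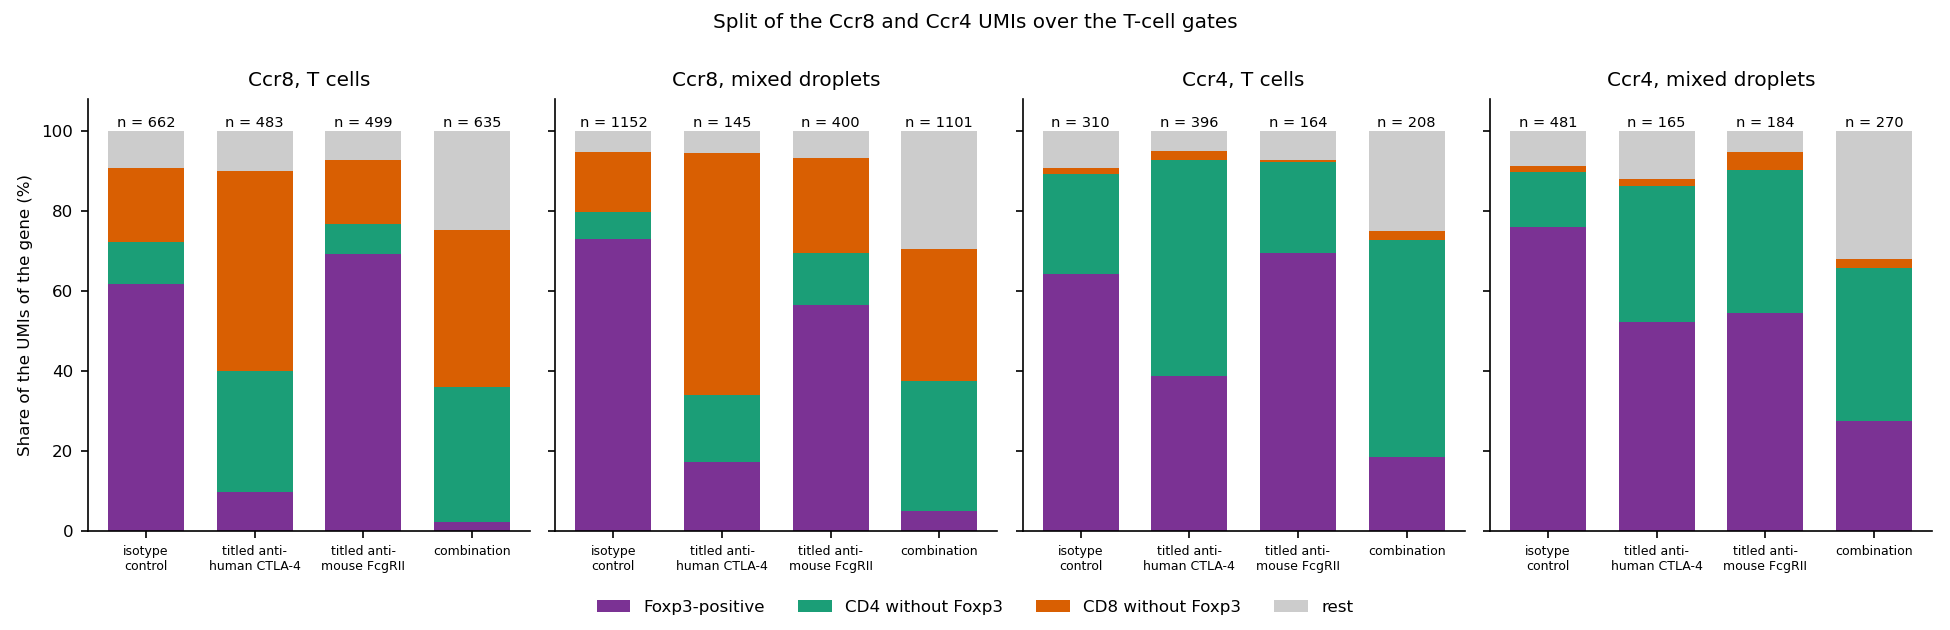
Share (percent, from 0 to 100) of the Ccr4 and Ccr8 UMIs of T cells and of mixed droplets in Foxp3-positive cells, CD4 cells without Foxp3, CD8 cells without Foxp3 and the rest, 1 bar per library with its number of UMIs above it. The Foxp3-positive part of the T cell Ccr8 UMIs is 61.6%, 9.73%, 69.1% and 2.05% in the order isotype control, titled anti-human CTLA-4, titled anti-mouse FcgRII and combination.

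In Foxp3-positive T cells Ccr8 was at 107, 79.3, 224 and 15.6 CPM, over 153, 63, 70 and 15 cells, of which 86, 18, 34 and 2 held a UMI. The level in the library titled anti-mouse FcgRII was the highest and that in the combination the lowest, where 13 UMIs were in 2 cells and 1 of these held 76.9%. The ratio of combination to isotype control was 0.15 (95% interval 0.0769 to 0.25). It rests on 15 cells, and with the mixed droplets added (45 against 453 cells) it was 0.38, while with the 5 genes used in the clustering it was 0.42. At 2358 UMIs Ccr8 was found in 29.1%, 14.7%, 33.5% and 2.11% of Foxp3-positive cells (56.2%, 28.6%, 48.6% and 13.3% without drawing down). The 15 cells of the combination held macrophage markers at 23443 CPM and T cell markers at 1750.2 CPM, against 21392 and 3762 in isotype control, and the part of this in the result was not tested. With the cells over 1% of macrophage markers left out, the ratio was 0.0777 (95% interval 0.0159 to 0.23), over 13 cells of the combination.

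Ccr4 in Foxp3-positive cells was at 52.2, 258, 74.1 and 45.6 CPM, highest in the library titled anti-human CTLA-4. These levels came from 199, 153, 114 and 38 UMIs over 153, 63, 70 and 15 cells. The part of the other RNA of these cells in the CPM was not tested. At 2358 UMIs Ccr4 was found in 22.01%, 40.8%, 20.4% and 27.1% of the Foxp3-positive cells (49.02%, 57.1%, 41.4% and 60.00% without drawing down). Its ratio of combination to isotype control was 0.87 (95% interval 0.60 to 1.24), an interval that includes 1 and does not overlap that of Ccr8, over the same 15 and 153 cells.

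In CD4 T cells without Foxp3 the combination had the highest Ccr8. It was at 96.1 CPM (95% interval 74.8 to 122), 160.2 CPM (95% interval 135 to 188), 113 CPM (95% interval 79.4 to 155) and 256 CPM (95% interval 223 to 293), over 124, 192, 45 and 105 cells of which 18, 40, 8 and 49 held a UMI. The interval of the combination overlapped none of the others, those of isotype control and the library titled anti-mouse FcgRII overlapped, and the ratio of combination to isotype control was 2.66 (95% interval 2.02 to 3.55). At 2358 UMIs Ccr8 was found in 9.24%, 17.6%, 10.9% and 32.4% of these cells (14.5%, 20.8%, 17.8% and 46.7% without drawing down). Summed macrophage markers were at 9442, 1501, 20369 and 9105 CPM in this gate. Ccr4 was at 107, 235, 113 and 135 CPM, with a ratio of 1.26 (95% interval 0.93 to 1.70), an interval that includes 1. Within this gate, cells with a Ccr8 UMI held more Tnfrsf9, the activation receptor 4-1BB, than cells without, by 3.75-fold (95% interval 2.62 to 5.43) in isotype control, 2.22-fold (95% interval 1.75 to 2.80) in the library titled anti-human CTLA-4 and 3.12-fold (95% interval 2.43 to 4.06) in the combination, and 1.36-fold (95% interval 0.69 to 2.62) in the library titled anti-mouse FcgRII, where 8 cells held Ccr8. In the combination, Ifng had a UMI in 22 of the 49 cells with Ccr8 and in 7 of the 56 without, and in isotype control in 5 of 18 and 35 of 106. Il2ra, a gene of the regulatory program, had a UMI in 10 of 18, 18 of 40, 4 of 8 and 22 of 49 cells with Ccr8. Without Ccr8 it had a UMI in 13 of 106, 27 of 152, 5 of 37 and 11 of 56. Whether the cells with Ccr8 are regulatory T cells without a Foxp3 UMI was not tested. The cells with Ccr8 were deeper, at medians of 7616, 5100, 7441 and 6250 UMIs against 3572, 3638, 4048 and 3625, and the part of depth in these shares was not tested.

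In CD8 T cells without Foxp3 the levels of Ccr8 lay close together, at 63.2, 59.5, 47.6 and 69.5 CPM, with a ratio of 1.10 (95% interval 0.88 to 1.38). At 2358 UMIs it was found in 14.4%, 12.5%, 10.1% and 14.004% of them. Ccr4 was at 2.57, 2.22, 0.596 and 1.40 CPM, low in each library.

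**Figure D4:**
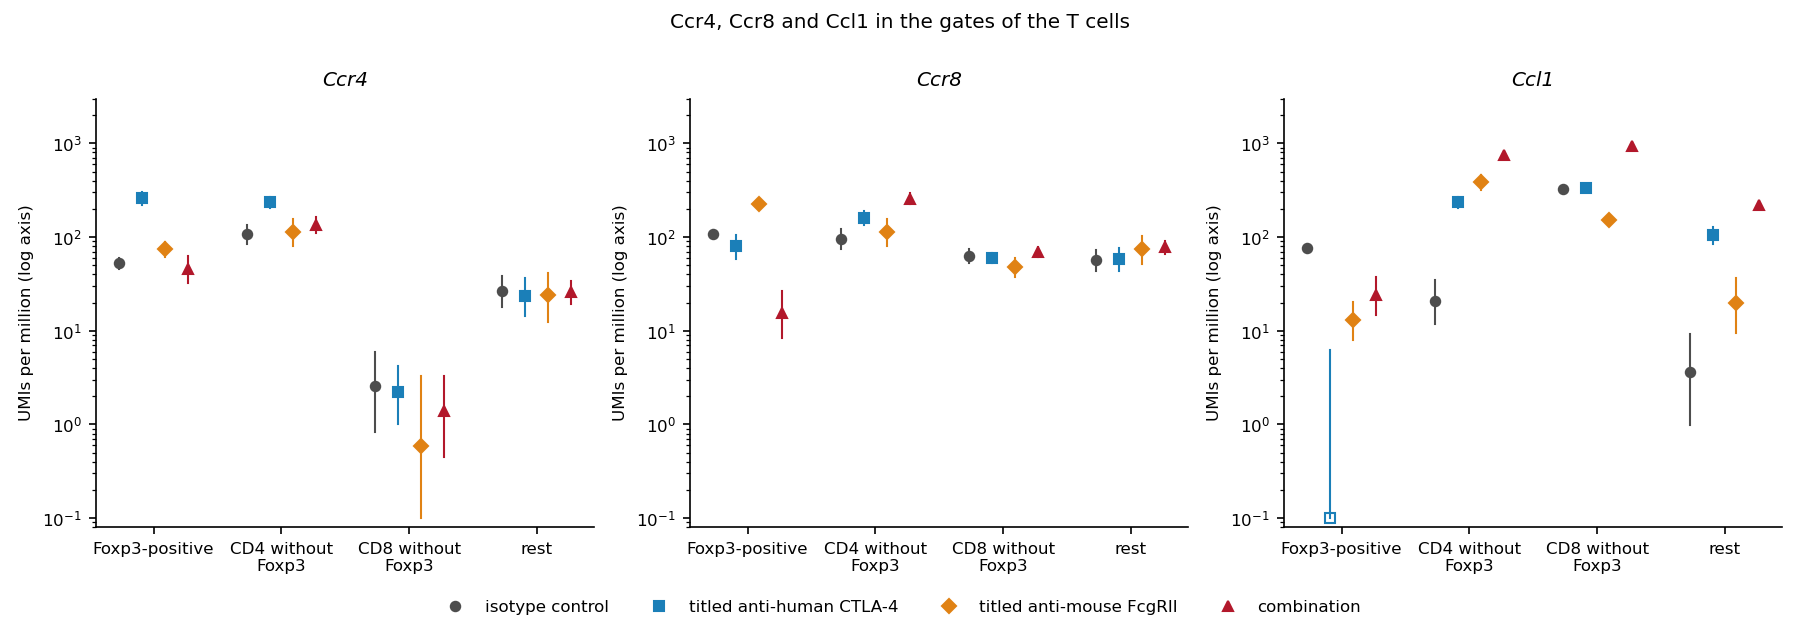
Ccr4, Ccr8 and Ccl1 (CPM, log axis, with exact Poisson 95% intervals) in Foxp3-positive T cells, CD4 T cells without Foxp3, CD8 T cells without Foxp3 and the rest, 1 symbol per library, where the open symbol is a level of 0 and values under 0.1 CPM are drawn at 0.1 CPM. Ccr8 of the combination is the lowest of the libraries in Foxp3-positive cells, at 15.6 CPM, and the highest in CD4 cells without Foxp3, at 256 CPM.

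A Ccr8 UMI was held by 166, 164, 83 and 168 T cells. Foxp3 was also in 51.8%, 10.98%, 40.96% and 1.19% of these. Cd8a or Cd8b1 was in 43.98%, 61.6%, 46.99% and 65.5% of them. A cell can hold both Foxp3 and a CD8 gene, so these shares overlap and are not a split of the cells. Few of the cells with Ccr8 held Foxp3 in the combination. Ccl1, the ligand of CCR8, was in 15.7%, 17.7%, 19.3% and 27.4% of the cells with Ccr8 and in 3.36%, 4.73%, 2.67% and 4.33% of those without. Cells with a Ccr4 UMI held Cd4 in 83.3%, 88.3%, 83.3% and 85.3% and Foxp3 in 56.8%, 28.1%, 60.4% and 13.2%. The receptors were found together in 53, 31, 18 and 30 T cells, Ccr4 alone in 79, 97, 30 and 38 and Ccr8 alone in 113, 133, 65 and 138.

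T cells with a UMI of Il1rl1, the interleukin 33 receptor that regulatory and type 2 cells carry, numbered 64, 85, 30 and 75. Ccl1 was at 97.2, 766, 178 and 934 CPM in them, from 8, 21, 2 and 21 cells, and the combination was the highest. Ccr8 was at 82.96, 108.3, 164 and 105 CPM and Ccr4 at 38.4, 104, 58.7 and 22.1 CPM, the latter lowest in the combination. In the combination these cells held 1861 Ccl1 UMIs, while the Foxp3-positive, CD4 and rest gates of all T cells held 20, 623 and 446. Part of their Ccl1 there thus came from CD8 cells without Foxp3. Their median depths were 5758, 6664, 10669.5 and 9283 UMIs, against 4699, 5258, 5816 and 6279 in all T cells. The part of depth and the types of these cells were not tested.

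**Figure D5:**
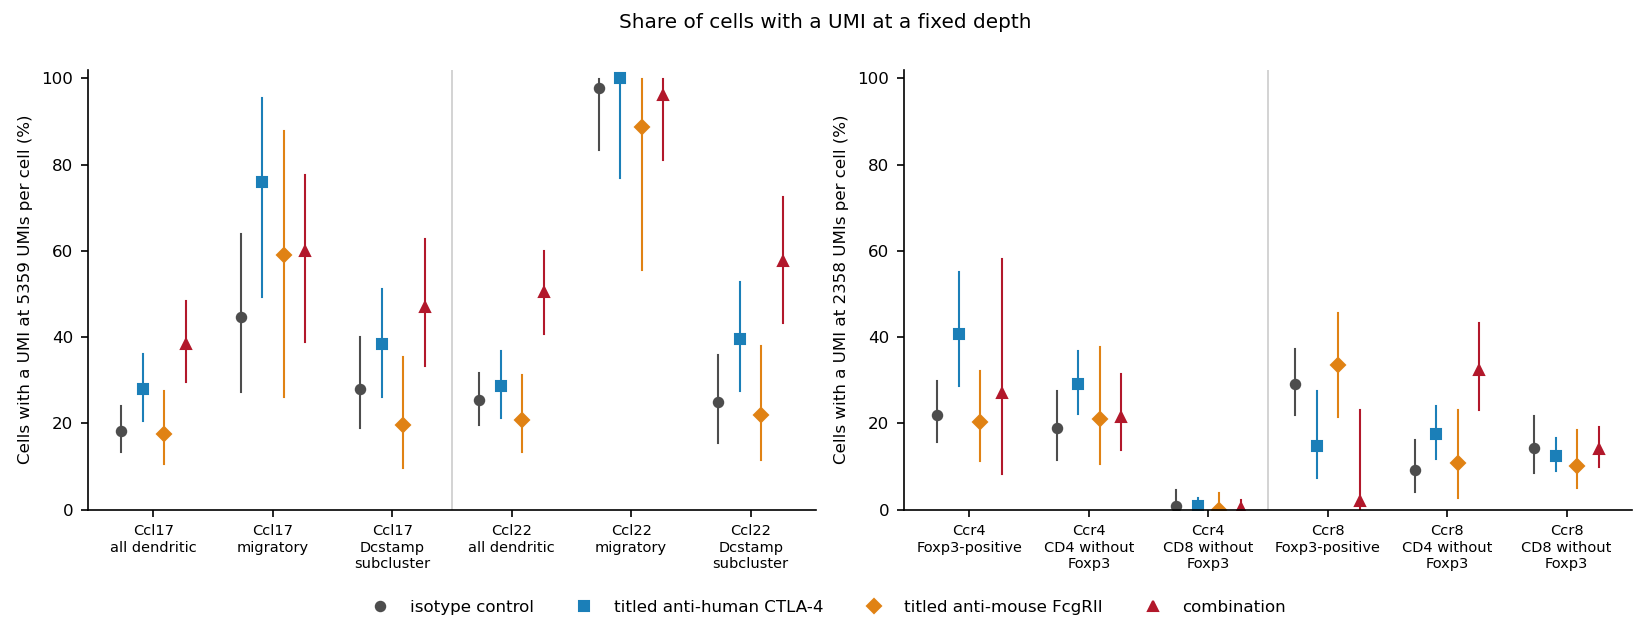
Share of cells (percent, with exact binomial 95% intervals) with a UMI of Ccl17 and Ccl22 among all dendritic cells, migratory cells and the Dcstamp subcluster drawn down to 5359 UMIs, and of Ccr4 and Ccr8 among the gates of T cells drawn down to 2358 UMIs, 1 symbol per library. For Ccl22 the combination stands at 50.4% of dendritic cells and the other libraries at 20.9 to 28.6%.

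Among innate lymphocytes Ccr8 was found in ILC1, and both receptors were low in NK cells. In ILC1 Ccr8 was at 26.6, 31.2, 41.99 and 14.7 CPM, lowest in the combination, and was found in 5.17%, 8.55%, 9.67% and 3.83% of cells at 2358 UMIs. The ratio of combination to isotype control was 0.55 (95% interval 0.35 to 0.89). In NK cells Ccr8 was at 0.812, 3.34, 0.951 and 3.03 CPM, and Ccr4 had 1 UMI in all 953 cells. A separate cluster of 392 cells with NK cell and macrophage markers held Ccr8 in 27 cells and Ccr4 in 14, pooled over the libraries. In ILC1 Ccr4 was found in 2, 0, 0 and 2 cells. Ccl22 in ILC1 had 133 UMIs in 1 cell of the library titled anti-human CTLA-4.

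Other genes of the pathway were described from lists chosen with earlier results of these data known, as counts of genes at least 2-fold from isotype control in the combination with 20 or more UMIs over both libraries. Of 17 genes of the mature dendritic cell program, 4 were higher in dendritic cells and 0 lower, where 3.05% and 4.26% of all 9722 genes were. Those 4 were Pdcd1lg2 at 3.77 (95% interval 3.22 to 4.43) and Cd274 at 3.25 (95% interval 2.91 to 3.63), which encode the ligands of PD-1, Il4i1 at 2.12 (95% interval 1.92 to 2.35) and Cd40 at 2.06 (95% interval 1.85 to 2.29). The PD-1 ligand genes were spread over cells, Cd274 in 103, 67, 46 and 104 and Pdcd1lg2 in 61, 56, 30 and 76 of the 241, 150, 97 and 127 dendritic cells. The lowest ratio was that of Fscn1, 1.18 (95% interval 1.09 to 1.26), and the median of the list was 1.71 against 0.93 for all genes. Ccr7, Fscn1, Cacnb3, Socs2, Relb and Il4i1 of this list also named the migratory subcluster, whose share was higher in the combination. Of 9 other CC chemokines tested in dendritic cells, 4 were higher, Ccl24 at 30.6, Ccl4 at 12.2, Ccl3 at 7.41 and Ccl2 at 2.69, none was lower, Ccl12 was the lowest at 0.78, and the median was 1.02. These chemokines rested on few cells, the top cell of the combination holding 85.5% of Ccl24, 59.7% of Ccl4, 72.8% of Ccl3 and 40.4% of Ccl2. A further list held regulators of CCL17 and CCL22 and their receptors, and whether each raises or lowers these ligands was not tested. Of its 10 tested genes Ifng alone was 2-fold higher, at 40.5, with 98.3% of its UMIs in 1 cell of the combination. None was lower, Irf4 was the lowest at 0.85, and the median was 1.10. Ackr2 and Ackr4, scavenging receptors of chemokines, had 0 UMIs in dendritic cells, which allows up to 1.12, 1.65, 2.32 and 1.74 CPM at 3 UMIs.

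In T cells 5 genes of the regulatory program were lower. Of 19 genes tested, 0 were higher and 5 lower, where 2.28% and 2.46% of all 10956 genes were. They were Il10 at 0.0584 (95% interval 0.0329 to 0.0965), Foxp3 at 0.08 (95% interval 0.0658 to 0.0967), Itgae at 0.17 (95% interval 0.13 to 0.22), Lrrc32 at 0.30 (95% interval 0.23 to 0.39) and Il2ra at 0.39 (95% interval 0.36 to 0.43). For Il10, 1 cell held 49.5% of the isotype control UMIs. Irf4 was the highest at 1.61 (95% interval 1.38 to 1.88), and the median of the list was 0.69 against 0.98 for all genes. The ratios of Ccr8 and Ccr4 in the same cells were 1.00 and 0.70. Of 9 genes of the type 2 program, Il5 was higher, at 7.98, and Il4 at 0.0783, Klrg1 at 0.22 and Il13 at 0.47 were lower, with a median of 0.96. Of 14 tested genes of the list of regulators of CCL17 and CCL22 and their receptors, Ifng was higher in T cells, at 2.51. Il10, Il4 and Il13 of that list were lower as given above, and its median was 1.03. The type 2 cytokines were found in few cells, 3, 9, 1 and 12 for Il5, 6, 14, 2 and 4 for Il4 and 6, 11, 1 and 17 for Il13. In isotype control 1 cell held 93.5% of the Il4 UMIs and 1 cell 81.6% of those of Il13. The low ratios of Il4 and Il13 thus rest largely on single cells. Of 7 other CC receptors, Ccr6 at 0.29 and Ccr2 at 0.48 were lower and none was higher, Ccrl2 being the highest at 1.19, with a median of 0.70.

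The pattern of each gene over classes and libraries was set beside that of 9176 other genes with at least 50 CPM in a class and library, over 76 points from 22 classes of at least 20 cells. Points share libraries and, in part, cells, so that Pearson's r of log2(CPM + 1) is a description only. The genes most like Ccl17 were Ccl22 (0.84), Zfp366 (0.77), Syngr2 (0.72), Plek2 (0.69) and Lpar3 (0.68). Those most like Ccl22 were Ccl17 (0.84), Zfp366 (0.79), Cx3cl1 (0.78), Lpar3 (0.76) and Syngr2 (0.76). Each CCR4 ligand was thus the gene most like the other. For Ccl1 they were Nrn1 (0.86), Slc17a6 (0.85), Zfp683 (0.80), Trbv12-2 (0.80) and Ccr8 (0.80), for Ccr4 Sit1 (0.88), Themis (0.88), Trbv3 (0.87), Bcl11b (0.86) and Izumo1r (0.86) and for Ccr8 Camk4 (0.90), Cxcr6 (0.87), Cd3d (0.87), Trbv12-2 (0.87) and Ehd3 (0.87). Zfp366 encodes a dendritic cell transcription factor, and Bcl11b, Themis and Cd3d are T cell genes. Between the members, r was 0.76 for the 2 receptors, 0.80 for Ccl1 and Ccr8, and -0.25 and -0.23 for Ccr4 with Ccl17 and Ccl22, its ligands.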

How the data were processed

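Single-cell RNA of sorted CD45+ tumor cells was measured in 4 libraries, 1 per group. The authors deposited whole-number counts of UMIs per gene and cell from Cell Ranger, for barcodes called as cells and without normalization. The submitters' processing notes name Cell Ranger 7.0.0 and mm10, and the matrix header names 7.2.0. The libraries held 178178393, 129151823, 142472286 and 196362818 UMIs.

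Cells with under 500 detected genes (67) or over 10% mitochondrial UMIs (48) were left out. The automatic Scrublet calls marked 0, 0, 1 and 0 cells and had not worked, and the top 5% of each library by score (1409 cells) were therefore left out. Some cells met more than 1 of these rules. The article's steps were then followed: SCTransform per library, integration over 3000 features, here without the 5 genes, 30 principal components and a resolution of 0.8, which gave 29 clusters. Dendritic cells were clustered again into 5 with 20 components and a resolution of 0.5. Clusters were named from marker lists and leading genes, and 1 cluster that carried T cell and macrophage markers together was kept out of the classes once it had been seen. A cluster of 392 cells with NK cell and macrophage markers was also kept apart from the NK cells. Doublets that passed the score may remain in any class.

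Counts were summed per class and library. CPM had exact Poisson intervals, ratios exact conditional binomial ones and shares exact Clopper-Pearson ones, at 95%, all covering counting error only. Shares at equal depth are the expected share of cells with a UMI when each cell is drawn down to the 10th percentile of its class without replacement, and their intervals rest on the expected number of cells, rounded. A gene counted as higher or lower at 2-fold or more with 20 or more UMIs over both libraries. Genes named beside the 5 are the highest and lowest of each list, those past 2-fold, and the 5 with the highest correlation to each of the 5, while Foxp3, Cd4, Cd8a, Cd8b1, Ifng, Il1rl1, Tnfrsf9, Itga1 and Itga2 were added to describe cells. The members and lists were chosen with earlier results of these data known. The intervals of the ratios and the drawing down were tested on simulated data. The counts for the intervals were Poisson draws without spread between cells, so that test does not cover UMIs held by few cells. Ccl27a and Ly6c2 of the lists were not analysed here.

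Seurat 5.3.0, sctransform 0.4.2 and Matrix 1.6.5 in R 4.3.3 and scanpy 1.11.5, numpy 2.4.6, scipy 1.17.1, pandas 2.3.3 and matplotlib 3.10.9 in Python 3.11.15 were used. The alternatives were other resolutions, 20 components, no integration, the 5 genes kept in clustering, no doublets left out, classes from marker UMIs, 1000 genes per cell, cells with other-lineage markers left out and other scalings.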

Additional observations from a re-analysis of the deposited data

How the results depend on the processing

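Each ratio of combination to isotype control was recomputed under 15 alternatives for Ccl22, Ccl17 and Ccl1 and 14 for the others, those of single cells, equal depth, the mixed droplets and macrophage markers in dendritic cells being chosen after the data were seen. The ratio stayed above 1 under each for Ccl22 (1.76 to 4.22), Ccl17 (1.67 to 3.99) and Ccl1 (1.71 to 5.81), and below 1 under each for Ccr4 (0.53 to 0.72) and for Ccr8 of Foxp3-positive cells (0.0394 to 0.42). For Ccr8 of all T cells, whose interval included 1, it was above 1 under 3 and ranged from 0.78 to 1.02. The ratio left its main counting interval in 7, 9, 2, 4, 6 and 10 cases, in the order Ccl22, Ccl17, Ccr4, Ccr8, Ccr8 of Foxp3-positive cells and Ccl1, and the cause was not tested. In those cases the ratio took the following values, for Ccl22 and Ccl17 in dendritic cells and for the other genes in T cells.

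Without integration it was 3.96 for Ccl22, 3.29 for Ccl17, 0.53 for Ccr4, 0.78 for Ccr8 and 4.58 for Ccl1. With no doublets left out it was 3.41 for Ccl22, 0.85 for Ccr8 and 0.0706 for Ccr8 of Foxp3-positive cells. With classes taken from the marker UMIs of each cell it was 1.76 for Ccl22, 1.67 for Ccl17, 0.87 for Ccr8, 0.36 for Ccr8 of Foxp3-positive cells and 3.26 for Ccl1. As a mean over cells it was 4.00 for Ccl22, 3.99 for Ccl17, 0.0394 for Ccr8 of Foxp3-positive cells and 5.70 for Ccl1. With size factors from median ratios it was 3.96 for Ccl22 and 3.15 for Ccl17. Without the top 10 cells it was 4.22 for Ccl22, 3.57 for Ccl17 and 5.81 for Ccl1. As a share of cells at equal depth it was 1.99 for Ccl22, 2.10 for Ccl17, 0.53 for Ccr4, 0.0725 for Ccr8 of Foxp3-positive cells and 1.71 for Ccl1. At a resolution of 1.2 it was 3.13 for Ccl17 and 4.46 for Ccl1. With 20 principal components it was 3.21 for Ccl17 and 4.00 for Ccl1. Without the top cell it was 3.31 for Ccl17. With cells of 1% or more other-lineage marker UMIs left out it was 0.80 for Ccr8. With the 5 genes kept among those used for clustering it was 0.42 for Ccr8 of Foxp3-positive cells and 4.02 for Ccl1. With the mixed droplets counted among the T cells it was 0.38 for Ccr8 of Foxp3-positive cells and 3.65 for Ccl1. At a resolution of 0.4 it was 3.65 for Ccl1.

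No paired analysis was possible because each group is 1 library, and leaving out a library leaves its group empty. The counts limit the Foxp3-positive cells of the combination most, with 15 cells and 13 Ccr8 UMIs, and the ligand levels rest on few cells in which single cells held up to 56.03% of a library's UMIs among the migratory cells. Each group is confounded with its library, its pool of tumors and its depth.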
